A study of Mus musculus with 2 samples.

Results

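The forkhead genes of vessels and mesenchyme examined here were Foxf1, Foxf2, Foxc1, Foxc2, Foxd1, Foxq1, Foxs1 and Foxo1, 8 of the 25814 genes with counts in either of 2 single-cell RNA libraries. They were taken by name, and all 8 had counts in both libraries, which held 36 forkhead genes in all. The libraries were made from cells sorted for green fluorescent protein from adult Nestin-GFP mice aged about 6 weeks, 1 from brain and 1 from lung. In these mice regulatory elements of Nestin, an intermediate filament gene of neural stem cells and of several other cell types, drive the reporter (Nes-GFP), so every class below holds only the reporter-positive cells of its kind. The strain was given as C57BL/6 by the labels, whereas the methods give the wild-type stock, to which transgenic mice were bred, as CD1 or CD1 mixed with C3H. The study asked whether the lung holds cells that resemble neural stem cells. The vessel and mesenchymal cells described here were sorted along with them.

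Forkhead factors bind DNA through a winged-helix domain, in which a recognition helix lies in the major groove. Foxf1 and Foxf2 are mesenchymal and vascular factors that lie downstream of hedgehog signals from epithelium, Foxc1 and Foxc2 act in vessel, meningeal and lymphatic development, and Foxd1 marks stromal progenitors in several organs. Foxs1 is known from perivascular cells, Foxq1 from epithelial and endothelial cells, and Foxo1 is a broadly expressed factor that AKT keeps out of the nucleus and that restrains growth of endothelial cells.

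The DNA coding for the start of the recognition helix is given for 7 of the 8 members, Foxo1 not among them, to show where their coding bases differ. Each stretch of 30 bases was read from the GENCODE M21 transcripts, 5′ to 3′ on the coding strand. Capitals mark bases that differ from Foxf1.
Foxf1: aactccgtgcgccacaacctgtcgctcaac
Foxf2: aactccgtgcgccacaacctCtcgctcaac
Foxc1: aacAGcAtAcgGcacaacctCtcgctcaac
Foxc2: aacAGcAtCcgccacaacctgtcActcaaT
Foxd1: aacAGcAtCcgTcacaacctgtcgctcaac
Foxq1: aactccgtgcgccacaacctCtcgctcaac
Foxs1: aacAGcAtCcgccaTaacctgtcTctcaac
Foxf2 and Foxq1 each differed from Foxf1 at 1 base, Foxd1 at 5, and Foxc1, Foxc2 and Foxs1 at 6. In the protein coded by these bases, Foxf2 and Foxq1 differed from Foxf1 at 0 residues. Foxc1, Foxc2, Foxd1 and Foxs1 each differed at 1, so the coded helix stretches were nearly alike.

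The members lie on 4 chromosomes of the mouse build GRCm38, and 5 of them in tight groups. On chromosome 8, Foxf1 (chr8:121084386-121088144, plus strand, 2 exons) is followed after 28.0 kb by the single-exon gene Foxc2 (chr8:121116171-121118895). The long non-coding RNA gene Fendrr (chr8:121054882-121083110, minus strand) starts 1.27 kb before Foxf1 and is transcribed away from it. On chromosome 13, Foxq1 (chr13:31556134-31560976) is followed after 64.8 kb by Foxf2 (chr13:31625816-31631403), and Foxc1 (chr13:31806633-31812476) lies 175 kb further on. Foxd1 is also on chromosome 13 (chr13:98354242-98359305), far from these. Foxs1 (chr2:152931898-152933208, minus strand) and Foxo1 (chr3:52268336-52353221, 3 exons) stand alone.

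Levels are given as CPM, the summed unique molecular identifiers (UMIs) of a gene in a class over all UMIs of that class, scaled to a total of 1e6. The reads come from the 3′ ends of transcripts, so a level is compared between classes for the same gene and not between genes. Each interval is an exact 95% interval and covers counting error only, and as each tissue was 1 library there was no replicate check and no test. Of 4640 brain barcodes, 4151 passed the filter, with a median of 4209 UMIs, and of 5981 lung barcodes 5608 passed, with a median of 5585. The libraries shared 15 barcodes, 11 of them among kept cells, and Scrublet called 1.06% of brain and 1.32% of lung cells doublets, which were kept. These shares were 3.34% in endothelial-like and 5.33% in mural-like cells of brain and 3.58% in endothelial-like cells of lung. Brain gave 329 endothelial-like, 169 mural-like and 66 fibroblast-like cells, 564 of 4151 (13.6%). Lung gave 614 endothelial-like, 2102 pericyte-like, 1007 myofibroblast-like, 587 matrix fibroblast-like and 75 smooth muscle-like cells, 4385 of 5608 (78.2%). Forkhead genes took no part in clustering or naming. The lists that named the brain classes held none for smooth muscle, so no brain class could have that name. The 169 mural-like cells held 15 UMIs of Acta2, the smooth muscle actin. Clustered again with lists for pericytes and smooth muscle, they gave sub-clusters of 112 and 57 cells that stayed unnamed. The larger scored highest for smooth muscle, below the limit for a name.

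**Figure D1:**
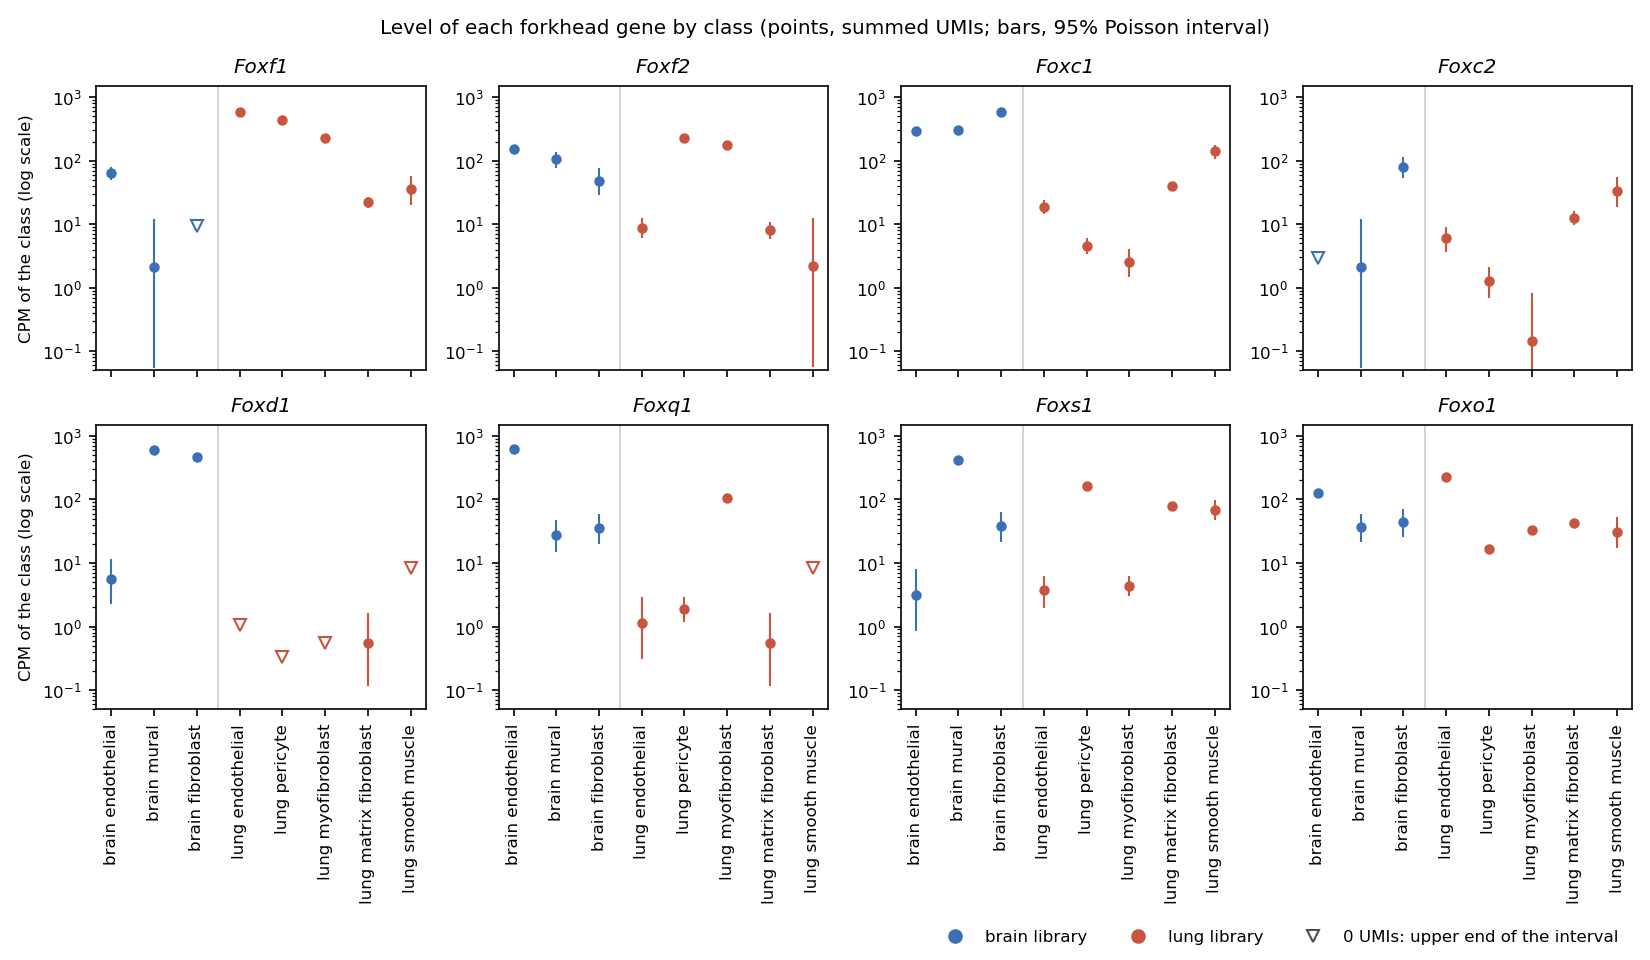
CPM (log axis) of each forkhead gene in the 3 brain and 5 lung classes, from summed UMIs, with 95% Poisson intervals; open triangles mark the upper end of the interval where a class had 0 UMIs. Foxd1 was at 605 CPM in brain mural-like cells and at 0 UMIs in 4 of the 5 lung classes, and Foxf1 was highest in lung endothelial-like cells at 586 CPM.

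In the brain sort, 7 of the 8 genes were concentrated in the vessel and mesenchymal cells. These cells held 10.9% of all brain UMIs and between 88.0% (Foxf1) and 98.1% (Foxq1) of the UMIs of those 7 genes. Foxo1 was the exception, with 33.7% of its 566 UMIs there. In lung the same kinds of cells held 85.1% of all UMIs, and between 71.3% (Foxc2) and 93.3% (Foxf1) of those of each member. Unnamed lung clusters held another 28.7% of Foxc2 UMIs.

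Foxf1, which is needed for the growth of lung vessels, was a gene of lung endothelium, pericytes and myofibroblasts. Lung endothelial-like cells had 586 CPM (561 to 612), pericyte-like cells 442 CPM (430 to 455) and myofibroblast-like cells 231 CPM (220 to 243). Matrix fibroblast-like cells were at 22.1 CPM and smooth muscle-like cells at 35.7 CPM, and neither was above the interval of the immune-like cells of the same library (34.3 CPM, 18.8 to 57.6), a type that should lack the gene. These low lung levels are read as background. Immune-like cells were shallower, at a median of 1992 UMIs against 9287 in matrix fibroblast-like and 6192 in smooth muscle-like cells. The part of depth in their level was not tested, so the reading does not show that the gene is absent. In brain, Foxf1 had 80 UMIs in endothelial-like cells (63.4 CPM, 50.3 to 79.0), 1 UMI in mural-like cells and 0 in fibroblast-like cells, and neuroblast-like cells were at 0.746 CPM. Brain endothelium thus held Foxf1 at a low level, while brain mural cells and fibroblasts held none that could be told from background. After each cell was thinned to 1000 UMIs, 38.8% of lung endothelial-like cells, 32.8% of lung pericyte-like cells and 5.97% of brain endothelial-like cells had a Foxf1 UMI. Unthinned, these shares were 75.4%, 79.5% and 19.8%. Thinned shares in cells that should lack the gene were 2.48% for lung immune-like and 0.0670% for brain neuroblast-like cells. Median depths were 5401 UMIs in lung endothelial-like, 5266 in pericyte-like, 1992 in immune-like, 3798 in brain endothelial-like and 4207 in neuroblast-like cells.

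Within lung endothelium, Foxf1 was uneven. Cluster 11 (145 cells), whose leading genes included Scn7a, Clec1a and the capillary gene Gpihbp1, was at 1017 CPM. Cluster 4 (394 cells), whose leading genes included Vwf, Lyve1, Gja5, Ednrb and Hey1, was at 493 CPM. Cluster 17 (75 cells) had 5 UMIs, 12.6 CPM, and was led by Fabp4, Rbp7 and Cd300lg, with Gpihbp1 next. It kept Foxo1 at 98.5 CPM and Foxc1 at 22.7 CPM. When the endothelial-like cells were clustered again, Foxf1 was at 1155 CPM in 76 cells led mostly by genes of dividing cells. It was at 584 CPM in 140 cells whose leading genes included Ednrb, and at 429 CPM in the arterial-like sub-cluster of 86 cells. Among the lung pericyte-like clusters, clusters 0, 5 and 7 were at 430 to 473 CPM of Foxf1, whereas cluster 13 (111 cells) had 3 UMIs, 5.72 CPM. Cluster 13 was led by Rgs5, Steap4, Procr and Kcnj8 and had 2223 CPM of Acta2. Other forkhead genes also set it apart from the remaining pericyte-like clusters, with Foxf2 at 3.81 CPM against 195 to 255, Foxc1 at 32.4 against 2.36 to 3.59, Foxc2 at 19.1 against 0 to 0.897 and Foxs1 at 250 against 115 to 166 CPM. In smooth muscle-like cells Foxf2 was at 2.23, Foxc1 at 141, Foxc2 at 33.5 and Foxs1 at 69.2 CPM. Clusters were made from the same cells, so these values are a description.

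**Figure D2:**
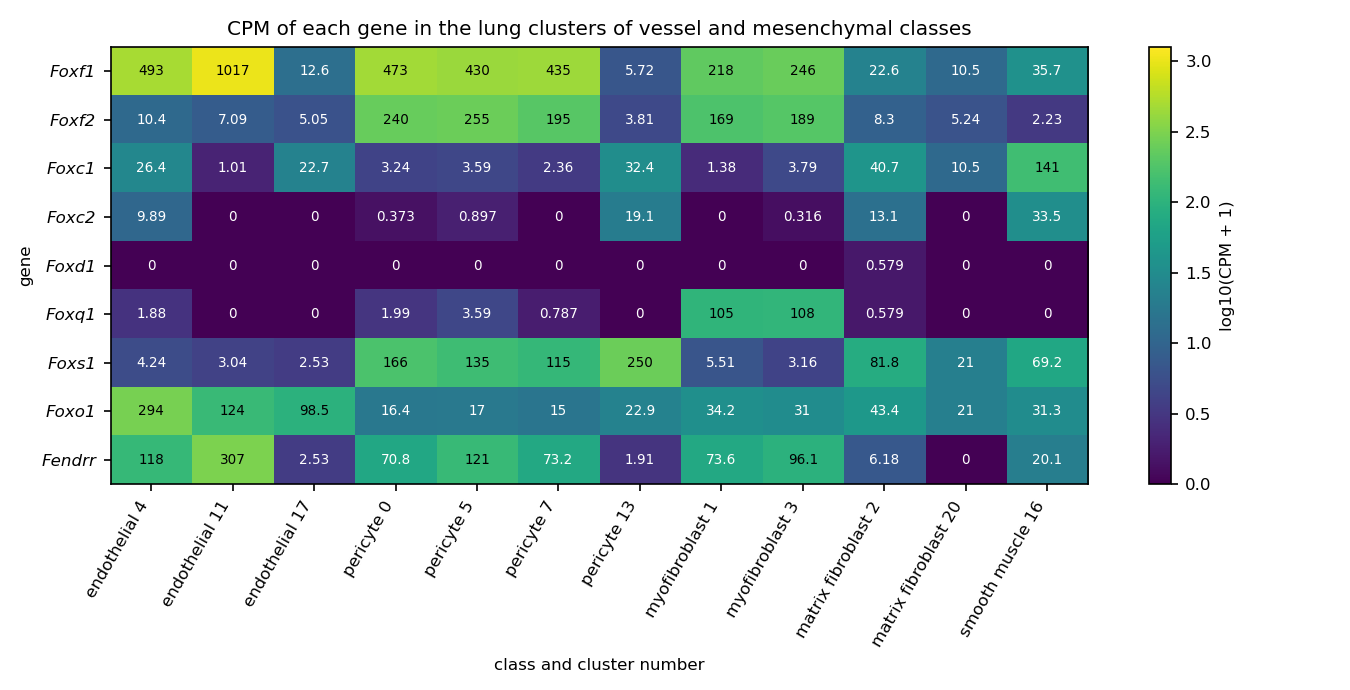
CPM of each forkhead gene and of Fendrr in the 12 lung clusters of vessel and mesenchymal classes; numbers are CPM and colour is log10(CPM + 1). Endothelial cluster 17 and pericyte cluster 13 were low in Foxf1 and in Fendrr, while the other endothelial and pericyte clusters were not.

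Fendrr, the non-coding neighbour of Foxf1, had the pattern most like it of 9456 genes compared over the 18 named classes of both libraries (Pearson r = 0.978 of log2(CPM + 10), a description over classes that share 2 libraries). Lung endothelial-like cells had 158 CPM of it, against 84.1 in myofibroblast-like cells, 72.9 in pericyte-like cells and 40.4 in brain endothelial-like cells, with 0 UMIs in brain mural-like cells. The lung clusters low in Foxf1 were low in Fendrr too, at 2.53 CPM in endothelial cluster 17 and 1.91 CPM in pericyte cluster 13, while cluster 11 was highest at 307 CPM. In lung endothelial-like cells, 263 of 292 cells with a Fendrr UMI (90.1%) also had a Foxf1 UMI, and so had 200 of 322 cells without one (62.1%). Cluster 17, low in both genes, held 74 of those 322 cells, and without it 262 of 291 cells with Fendrr and 197 of 248 cells without it (79.4%, 73.9 to 84.3%) had a Foxf1 UMI. The cells with Fendrr were deeper, at a median of 5862 against 5076 UMIs, and the part of depth was not tested. In brain endothelial-like cells these shares were 7 of 42 (16.7%) and 58 of 287 (20.2%), and their intervals overlapped. The counting was not stated to use strand, although Fendrr and Foxf1 do not overlap. The next genes in the list for Foxf1 were Hoxa5, Hilpda, Gpr126 and Piezo2, at r from 0.861 to 0.878.

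The start of Fendrr is shown because it faces Foxf1 and because the levels of both genes went together over classes. The RefSeq window (GRCm38.p6, chr8:121083061-121083360, minus strand) holds 250 bases before and 50 after the start. Capitals mark a forkhead motif, GTAAACA, searched on both strands.
Fendrr: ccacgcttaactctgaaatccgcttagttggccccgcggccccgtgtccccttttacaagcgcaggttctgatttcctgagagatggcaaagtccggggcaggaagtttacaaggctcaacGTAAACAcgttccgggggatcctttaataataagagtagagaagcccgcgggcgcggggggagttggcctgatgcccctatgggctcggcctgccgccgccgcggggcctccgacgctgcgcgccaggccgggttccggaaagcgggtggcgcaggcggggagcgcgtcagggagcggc
The motif began 129 bases before the start. It was in 3.65% of the 32851 promoter windows of that length, so a match is a description and not a site. Of the members, Foxf2, Foxc1, Foxd1 and Foxo1 had a window in this table, and none of the 4 had the motif in the 250 bases before its start, where 3.17% of promoters had it.

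**Figure D3:**
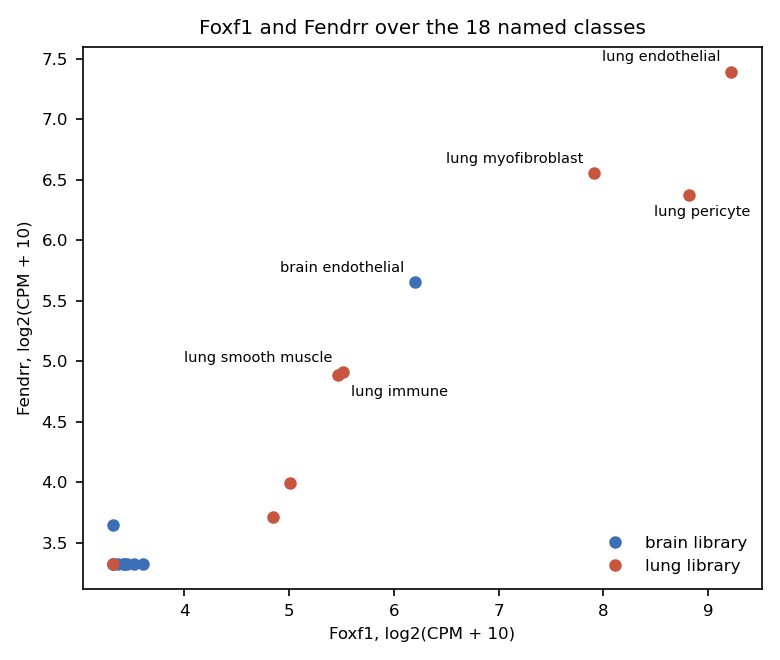
Foxf1 (x axis) against Fendrr (y axis), both as log2(CPM + 10), in the 18 named classes of both libraries; each point is 1 class. Lung endothelial-like, pericyte-like and myofibroblast-like cells and brain endothelial-like cells lie at the upper right, and the neural classes of brain, with 0 UMIs of Fendrr, lie at the lower left.

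Foxf2, a close relative of Foxf1 known from brain vessels, was in all 3 vessel classes of the brain, and in lung it was above background in pericytes and myofibroblasts. In brain it was at 152 CPM (131 to 175) in endothelial-like, 105 CPM (77.6 to 139) in mural-like and 48.6 CPM (29.2 to 75.8) in fibroblast-like cells. In lung it was at 225 CPM (216 to 234) in pericyte-like and 178 CPM (169 to 189) in myofibroblast-like cells. Lung endothelial-like cells were at 8.84 CPM, matrix fibroblast-like cells at 8.19 CPM and smooth muscle-like cells at 2.23 CPM, all below the 19.6 CPM of the immune-like cells and so read as background. Of the 31 Foxf2 UMIs in lung endothelium, 18 were in 23 cells that were led by pericyte genes (Gucy1a3, Cox4i2, Higd1b) when the endothelial-like cells were clustered again. In lung pericytes, cells with a Foxf1 UMI had a Foxf2 UMI more often, in 68.3% of 1671 pericyte-like cells against 40.4% of 431 without Foxf1, at median depths of 5445 and 4027 UMIs, and the part of depth was not tested. Cluster 13, low in both genes, held 109 of those 431 cells, and without it the shares were 68.4% and 53.4%. In brain endothelial-like cells the counts were 30 of 65 cells and 111 of 264 cells, and the intervals of these shares overlapped. The genes most like Foxf2 were 1700018A04Rik (r = 0.884), Plekhh2, Tmem204, Yipf4 and Egflam, and the first of these also led the list for Foxq1 (r = 0.863).

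Promoters of 2 chromosome 13 members that were higher in brain than in lung endothelium are shown next, the 250 bases before the start of Foxf2 (chr13:31625566-31625815, plus strand) and of Foxc1 (chr13:31806396-31806645, plus strand, from the RefSeq start), with no capitals as neither holds the forkhead motif.
Foxf2: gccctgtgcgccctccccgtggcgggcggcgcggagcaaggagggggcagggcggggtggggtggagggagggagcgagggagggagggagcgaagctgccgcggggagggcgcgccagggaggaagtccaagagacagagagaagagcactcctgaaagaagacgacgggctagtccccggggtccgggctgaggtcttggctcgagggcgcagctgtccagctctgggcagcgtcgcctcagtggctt
Foxc1: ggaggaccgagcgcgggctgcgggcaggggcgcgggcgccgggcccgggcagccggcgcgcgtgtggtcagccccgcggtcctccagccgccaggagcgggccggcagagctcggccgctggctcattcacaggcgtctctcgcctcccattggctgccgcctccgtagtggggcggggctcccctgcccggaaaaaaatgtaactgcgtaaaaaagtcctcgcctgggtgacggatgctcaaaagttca
They held 21 and 29 CG dinucleotides, where the median promoter held 6 and the middle 50% held 2 to 16.

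Foxc1, a factor of meninges and vessels, was high in every brain vessel class and low in nearly all lung classes. It was at 583 CPM (510 to 664) in brain fibroblast-like cells, 304 CPM (256 to 358) in mural-like cells and 289 CPM (261 to 321) in endothelial-like cells. The mural and endothelial levels did not differ beyond their intervals. In lung it was highest in smooth muscle-like cells, at 141 CPM (108 to 180). Matrix fibroblast-like cells were at 39.6, endothelial-like cells at 18.8, pericyte-like cells at 4.57 CPM, myofibroblast-like cells had 17 UMIs, and immune-like cells had 0 UMIs. The 35 epithelial-like cells of lung were at 43.5 CPM. Their leading genes were Ccl21a, Krt17, Cd74, Krt5, H2-Ab1, H2-Eb1, Krt14, H2-Aa, Cxcl11 and Krt18. The epithelial markers Sftpc, Krt19 and Scgb1a1 were at 0 in these cells. In lung endothelium, Foxc1 was at 26.4 CPM in cluster 4 and at 1.01 CPM in cluster 11, the reverse of the order of Foxf1. Foxc1 and Foxo1 were also found in the same endothelial cells of the lung: 45 of 51 cells with a Foxc1 UMI (88.2%, 76.1 to 95.6%) had a Foxo1 UMI, against 336 of 563 without one (59.7%, 55.5 to 63.8%), at median depths of 5567 and 5361 UMIs. Cluster 4, where Foxo1 was highest, held 56 of the 66 Foxc1 UMIs. When the endothelial-like cells were clustered again, sub-clusters of 100 and 86 cells held 20 and 25 Foxc1 UMIs. In these, 79.0% and 86.0% of all cells had a Foxo1 UMI. The part of such groups in the shared detection was not tested. The genes most like Foxc1 over the 18 classes were Hspb1 (r = 0.909), Slc22a8, A4galt, Itpr1 and Tbx18.

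Foxc2, which is paired with Foxc1 in function and is known from lymphatic valves, was sparse. It had 31 UMIs (79.2 CPM, 53.8 to 112) in brain fibroblast-like cells, 1 UMI in mural-like and 0 in endothelial-like cells. In lung it was at 33.5 CPM (18.7 to 55.3) in smooth muscle-like cells, 12.7 CPM in matrix fibroblast-like cells, 5.99 CPM in endothelial-like cells and 1.28 CPM in pericyte-like cells, with 1 UMI in myofibroblast-like cells. The same order of lung classes held for Foxc1, with smooth muscle first and myofibroblasts last. All 21 endothelial UMIs were in cluster 4 and none in clusters 11 and 17. The 7 lymphatic genes of the fixed list were mixed in lung endothelial-like cells. Lyve1, a hyaluronan receptor that was also among the leading genes of cluster 4, was at 798 CPM and Flt4, a VEGF receptor, at 34.8 CPM. Prox1, the regulator of lymphatic identity, and Ccl21a had 4 UMIs each, Pdpn had 1, and Mmrn1 and Reln had 0. The genes most like Foxc2 were Col4a6 (r = 0.976), Aldh1a2, Col4a5, Nov and Crispld2, of which 4 were highest in brain fibroblast-like cells. Col4a5 and Col4a6 encode a pair of basement membrane collagen chains, and Aldh1a2 makes retinoic acid in the meninges.

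Foxd1 was a gene of brain mural cells and fibroblasts and was nearly absent from the lung counts. It was at 605 CPM (537 to 680) in brain mural-like cells and 465 CPM (400 to 538) in brain fibroblast-like cells, and at 5.55 CPM (7 UMIs) in brain endothelial-like cells. The whole lung library, with 31797069 UMIs in kept cells, had 4 Foxd1 UMIs, 3 of them in matrix fibroblast-like cells and 0 in 2102 pericyte-like cells. Thinned to 1000 UMIs, 45.7% of brain mural-like cells had a Foxd1 UMI, against 0.0670% of neuroblast-like cells, and without thinning the shares were 75.1% and 0.133%, at median depths of 2559 and 4207 UMIs. The genes most like it over the classes were Slc6a20a (r = 0.997), Gm17200, Lamc3, Slc6a12 and Il34, all highest in brain mural-like or fibroblast-like cells. Lamc3 was also a naming marker of lung pericyte-like cells. Slc6a20a and Slc6a12 encode amino acid and osmolyte transporters. Of the 7 endothelial UMIs, 3 were in a sub-cluster of 34 cells, made when brain endothelium was clustered again, whose leading genes were mostly those of neuroblasts (Igfbpl1, Tubb3, Sp8) with the pericyte gene Vtn.

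Foxq1 was a gene of brain endothelium and of lung myofibroblasts. It was at 632 CPM (589 to 677) in brain endothelial-like cells, 35.8 CPM (14 UMIs) in fibroblast-like cells and 27.8 CPM (13 UMIs) in mural-like cells. In lung, myofibroblast-like cells were at 107 CPM (99.0 to 115), and pericyte-like (21 UMIs), endothelial-like (4 UMIs), matrix fibroblast-like (3 UMIs) and smooth muscle-like cells (0 UMIs) were all at or below 1.92 CPM. Both myofibroblast clusters held it alike, at 105 and 108 CPM. When brain endothelium was clustered again, Foxq1 ranged from 424 CPM in the arterial-like sub-cluster (34 cells) to 672 CPM in the venous-like one (81 cells) and 785 CPM in another of 100 cells. The brain mural-like cells also held endothelial markers at a summed 1042 CPM, against 22950 CPM in endothelial-like cells, with none of the 10 at 0, and the part of these in the mural Foxq1 level was not tested. Slco1a4, a transporter of the blood-brain barrier, and Apcdd1, an inhibitor of Wnt signals, were among the 5 genes most like Foxq1 (r = 0.842 and 0.840), and so was another forkhead gene, Foxl2 (r = 0.833). Foxl2, best known from the ovary, had 109 UMIs (86.4 CPM) in brain endothelial-like cells and 0 in lung endothelial-like cells.

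Foxs1 was a gene of mural cells in both tissues. It was at 413 CPM (357 to 475) in brain mural-like cells, 161 CPM (153 to 168) in lung pericyte-like cells, 79.7 CPM (72.3 to 87.6) in lung matrix fibroblast-like cells and 69.2 CPM (47.0 to 98.3) in smooth muscle-like cells. Brain fibroblast-like cells were at 38.3 CPM (21.5 to 63.2). The levels in endothelial-like cells of brain (3.17 CPM) and lung (3.71 CPM) and in lung myofibroblast-like cells (4.42 CPM) were close to the 2.45 CPM of lung immune-like cells. Myofibroblasts thus held Foxf1, Foxf2 and Foxq1 but little Foxs1, while pericytes held Foxf1, Foxf2 and Foxs1 but little Foxq1. Of the 13 Foxs1 UMIs in lung endothelium, 8 were in the 23 cells led by pericyte genes. Its nearest genes over the classes were Enpep (r = 0.951), Vasn, Ndufa4l2, Gm15261 and Notch3, and Ndufa4l2 and Notch3 were among the markers that named the mural-like and pericyte-like classes.

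Foxo1 was found in neural as well as vessel classes. Endothelial-like cells had 224 CPM (208 to 240) in lung and 124 CPM (106 to 146) in brain. The other vessel and mesenchymal classes lay from 16.6 CPM (14.3 to 19.2) in lung pericyte-like cells to 43.5 CPM in brain fibroblast-like cells. Lung matrix fibroblast-like cells were at 42.6, brain mural-like at 36.4, lung myofibroblast-like at 32.7 and smooth muscle-like cells at 31.3 CPM. From brain fibroblast-like to smooth muscle-like cells, neighbours in this order did not differ beyond counting error. Smooth muscle-like cells were at 1.88 times the pericyte-like level (1.01 to 3.24). Lung immune-like cells were at 41.7 CPM. Outside these, lung neural-like cells were at 113 CPM (20 UMIs), brain ependymal-like cells at 83.6 and brain quiescent stem cell- or astrocyte-like cells at 62.9 CPM. In lung endothelium it was at 294 CPM in cluster 4, 124 CPM in cluster 11 and 98.5 CPM in cluster 17. The arterial-like lung sub-cluster (86 cells) was at 354 CPM and the arterial-like brain one at 62.6 CPM (9 UMIs). The genes most like Foxo1 were Bhlhe40 (r = 0.819), Itpr3, Plec, Smpdl3a and Nod1.

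The next comparison asked how far endothelium of brain and lung differed in these genes. Foxf1 was higher in lung, and Foxf2, Foxc1 and Foxq1 were higher in brain. Foxf1 was at 9.24 times its brain level (7.39 to 11.7). Foxq1 was 554 times higher in brain (216 to 2039), Foxf2 17.2 times (11.7 to 26.1) and Foxc1 15.4 times (11.8 to 20.3). Foxo1 was 1.80 times higher in lung (1.51 to 2.15). Foxc2, with 21 lung UMIs and 0 in brain, was at least 1.87-fold higher in lung by its exact interval and 2.52-fold against a floor of 3 counts over the class. A gene was called at 4-fold or more among genes with at least 20 UMIs over both classes. Of 6 members that could be called, 1 was higher in lung, as were 6.68% of the 10636 genes tested, and 3 were lower, as were 4.32%. The Foxq1 fold rests on 4 lung UMIs (1.14 CPM), of which 3 were in the 23 cells led by pericyte genes. This lung level was not above the 4.90 CPM of lung immune-like cells, in which 1 UMI was 2.45 CPM. The lung level of Foxf2 was also read as background, so neither fold is firm. As lung over brain, the Foxq1 ratio of 0.00181 moved to 0.000460 without cells called doublets and to 0.00392 without the upper limit on genes per cell. The Foxf2 ratio of 0.0581 moved to 0.0227 without cells called doublets, to 0.137 without the upper limit on genes per cell and to 0.00568 with 10% of the library mean profile removed.

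Vessel genes linked to the Foxc factors, a fixed list of Notch and chemokine genes, were compared in the same cells, where 6.68% of all genes tested were called higher in lung and 4.32% lower. Of 7 on the list, 4 were called higher in lung and 0 lower, with a median log2 ratio of 2.10 against 0.014 over all genes. They were Cxcr4 (14.1 times), Hey2 (11.9 times, resting on 1 brain UMI), Hey1 (8.96 times) and Dll4 (4.30 times), a chemokine receptor, a pair of Notch target repressors and a Notch ligand. Of the 17 Foxo1 target genes tested, 0 were called higher and 2 lower, Sesn1 (6.91 times higher in brain) and the cell cycle inhibitor Cdkn1a (4.95 times). Of 11 regulators of Foxo, Sgk1, a kinase that phosphorylates these factors, was 6.18 times higher in lung, and Igf1r, the IGF receptor, was 6.28 times higher in brain. Lyve1 was called among 2 lymphatic genes tested, at 798 CPM in lung and 2.38 CPM (3 UMIs) in brain. None of 3 hedgehog genes and none of 6 neighbours of the members was called.

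Mural cells of the tissues differed past 4-fold in Foxf1, Foxd1 and Foxc1, and Foxq1 was also called, on a ratio that is not firm. Foxf1 was at 207 times its brain level in lung pericyte-like cells, a ratio that rests on 1 brain UMI (37.1 to 8166). Foxd1, at 0 UMIs in lung pericyte-like cells, was at least 1784-fold higher in brain mural-like cells by its exact interval and 2208-fold against a floor of 3 counts. Also higher in brain were Foxc1, at 66.5 times (47.9 to 93.7), and Foxq1, at 14.5 times (6.67 to 30.3). Under 4-fold, Foxf2 was 2.15 times higher in lung (1.62 to 2.91), Foxs1 was 2.57 times higher in brain (2.20 to 2.99), and Foxo1 was at 0.457 of its brain level in lung (0.278 to 0.802). Of 7 members tested, 1 was called higher in lung (4.58% of all genes tested) and 3 lower (5.66%). The Foxq1 ratio of lung over brain, 0.0690, was 0.264 at a clustering resolution of 0.4, which ends the call. Its lung level (1.92 CPM) was not above that of lung immune-like cells, in which 1 UMI was 2.45 CPM. The brain mural-like cells held endothelial markers at a summed 1042 CPM, against 22950 CPM in endothelial-like cells. The part of these in the mural Foxq1 level was not tested. Fendrr, among the neighbours of the members, was at least 9.22-fold higher in lung by its exact interval, and Gmds, which flanks the chromosome 13 group, was 5.17 times higher in brain. Of the 19 Foxo1 targets tested, Klf2 (17.6 times) and Trib1 (5.10 times) were called higher in lung and S1pr1 lower. Of 7 Foxc-linked vessel genes, 1 was called higher in lung and 3 lower.

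Fibroblasts of the brain held more of the Foxc genes and of Foxd1 than matrix fibroblasts of the lung. Foxd1 was 833 times higher in brain (281 to 4078, on 3 lung UMIs), Foxc1 14.7 times (12.1 to 17.8), Foxc2 6.26 times (3.96 to 9.71) and Foxf2 5.93 times (3.27 to 10.4). The lung level of Foxf2 was read as background, so its fold is not firm, and as lung over brain its ratio of 0.169 moved to 0.0119 with 10% of the library mean profile removed. Foxs1 was 2.08 times higher in lung (1.25 to 3.74), and for Foxo1 the ratio was 0.981 (0.599 to 1.71). Foxf1, at 0 UMIs in brain fibroblasts, was at least 2.31-fold higher in lung by its exact interval and 2.89-fold against a floor of 3 counts. Its lung level was read as background, and with 10% of the library mean profile removed its ratio turned to 0.0732. Without the upper limit on genes per cell the ratio was 13.1, past 4-fold. Of 7 members tested, 0 were called higher in lung (4.81% of all genes tested) and 4 lower (4.93%), Foxf2 among the latter. Hhip (9.17 times, on 3 brain UMIs) and Gli1 (6.59 times, on 2 brain UMIs), both direct targets of the hedgehog pathway, were called higher in lung matrix fibroblasts. Of the 7 hedgehog genes tested, 3 were called higher and 0 lower, with a median log2 ratio of 0.96 against -0.079 over all genes.

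**Figure D4:**
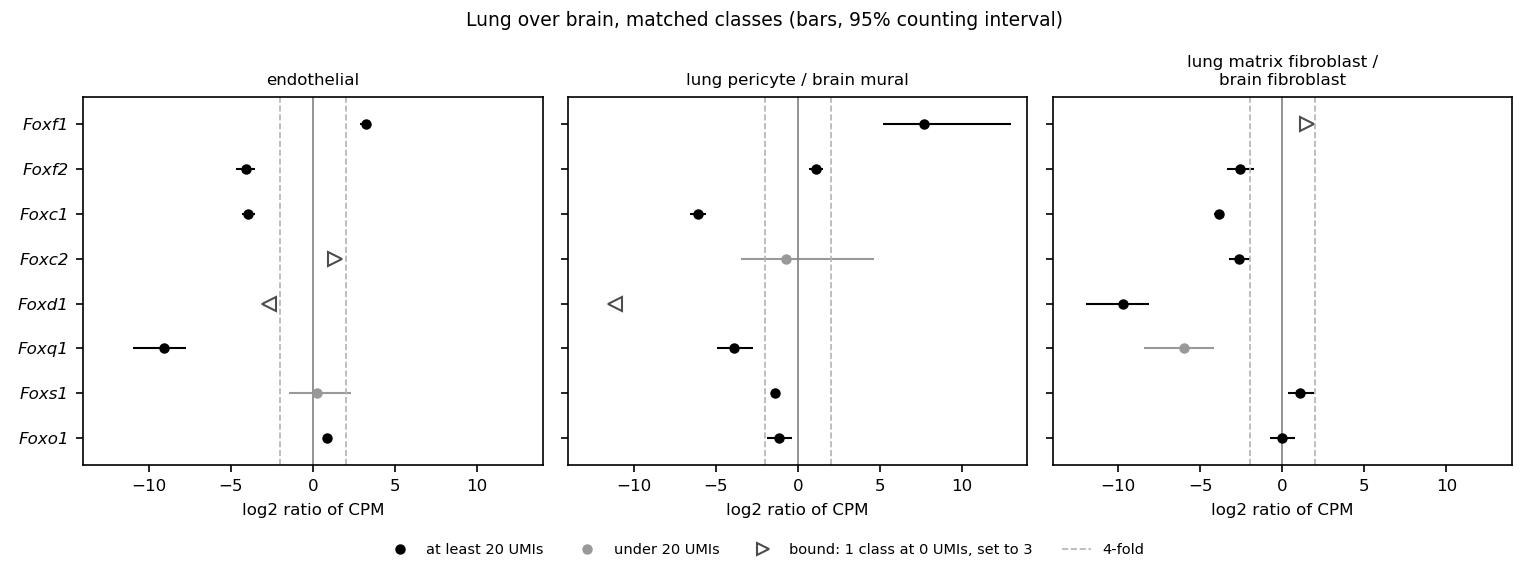
Ratio of CPM, lung over brain, on a log2 axis for each forkhead gene in 3 pairs of matched classes; bars are exact 95% intervals from counting, grey points have under 20 UMIs, open triangles are ratios with 0 UMIs set to a floor of 3 counts and dashed lines mark 4-fold. Foxc1 lies left of the 4-fold line in all 3 pairs, and Foxf1 lies right of it in endothelium and mural cells.

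Within the brain, endothelial and mural cells divided 4 of the members between them. Foxq1 was 22.7 times higher in endothelial-like cells (13.2 to 42.9) and Foxf1 29.7 times (5.17 to 1186, on 1 mural UMI). Foxd1 was 109 times higher in mural-like cells (52.3 to 274), and Foxs1 in endothelium was at 0.00768 of its mural level (0.00207 to 0.0200). That Foxs1 ratio rests on 4 endothelial UMIs, 3 of them in a sub-cluster of 34 cells whose leading genes included the pericyte gene Vtn. The alternatives moved it to between 0.00413 and 0.00932. Foxo1 was 3.42 times higher in endothelium (2.07 to 6.03). Foxf2 was 1.45 times higher there (1.06 to 2.03), and Foxc1 did not differ beyond counting error (0.953, 0.783 to 1.16). Of 7 members tested, 2 were called higher in endothelium (8.58% of all genes tested) and 2 lower (6.61%). Of 16 Foxo1 targets, 5 were called higher in endothelium and 1 lower, with Klf2 82.2 times, Klf4 at least 49.1-fold by its exact interval and S1pr1 17.4 times higher. Klf2 and Klf4 are factors induced by blood flow. Of 6 Foxc-linked vessel genes, 3 were called higher in endothelium and 1 lower. The Notch target Hey2 was 192 times higher in mural-like cells (33.3 to 7671) on 1 endothelial UMI.

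Brain fibroblasts and mural cells shared Foxc1 and Foxd1. Foxc1 was 1.92 times higher in fibroblast-like cells (1.55 to 2.38) and Foxd1 1.30 times higher in mural-like cells (1.08 to 1.58). Foxc2 was 37.0 times higher in fibroblast-like cells (6.17 to 1510, on 1 mural UMI) and Foxs1 10.8 times higher in mural-like cells (6.37 to 19.6). Of 7 members tested, 1 was called higher in fibroblasts (5.43% of all genes tested) and 1 lower (7.46%). The fibroblast-like cells held the 9 mural markers at a summed 6508 CPM, against 40780 CPM in mural-like cells, with Rgs5, Kcnj8 and Higd1b at 0, and the part of these in the Foxs1 level of fibroblasts was not tested. Foxp2, of the other forkhead genes, was 6.57 times higher in fibroblast-like cells (2.72 to 19.2).

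Within the lung, endothelium and pericytes shared Foxf1 and differed in Foxf2, Foxs1 and Foxo1. Foxf1 in pericyte-like cells was at 0.754 of its endothelial level (0.716 to 0.795). Foxs1 was 43.3 times (25.3 to 81.5) and Foxf2 25.4 times (17.9 to 37.5) higher in pericyte-like cells. The endothelial counts behind both were read as background. As endothelial over pericyte-like, the alternatives moved Foxf2 from 0.0393 to between 0.00403 and 0.0914, and Foxs1 from 0.0231 to between 0.00560 and 0.0520. Foxo1 was 13.5 times (11.4 to 15.9), Foxc2 4.68 times (2.27 to 9.95) and Foxc1 4.12 times (2.81 to 6.07) higher in endothelium. Without pericyte cluster 13 the Foxc2 ratio was 15.6 and the Foxc1 ratio 5.94. The Foxc1 ratio fell under 4-fold at a clustering resolution of 0.4 (3.95) and with under 10% mitochondrial counts (3.97). The Foxc2 ratio fell under 4-fold without the upper limit on genes per cell (3.64). Of 7 members tested, 3 were called higher in endothelium (8.58% of all genes tested) and 2 lower (9.06%). Foxp1, another forkhead factor, was 4.29 times higher in endothelium and its relative Foxp4 6.89 times higher in pericyte-like cells. Sgk1 was 43.3 times higher in endothelium. Of 7 Foxc-linked vessel genes, 4 were called higher in endothelium and 0 lower, Cxcl12, Hey1, Dll4 and Notch4. Of 19 Foxo1 targets, 4 were called in each direction, with S1pr1, Klf4, Klf2 and Cdkn1a higher in endothelium and Irs2, Pdk4, Cited2 and Angpt2 higher in pericyte-like cells. The endothelial-like cells held the 12 pericyte markers at a summed 624 CPM, against 24080 CPM in pericyte-like cells, with none at 0, and their part in the endothelial Foxf2 and Foxs1 levels was not tested.

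In the lung, Foxf1 and Foxf2 were called in pericytes over matrix fibroblasts, and Foxc1 and Foxc2 the other way. Foxf2 was 27.5 times higher in pericyte-like cells (20.4 to 37.9), and Foxf1 in matrix fibroblasts was at 0.0501 of its pericyte level (0.0414 to 0.0601). The matrix fibroblast levels behind both were read as background, so neither ratio is firm. As matrix fibroblast over pericyte-like, the alternatives moved Foxf1 to between 0.00135 and 0.0632, and Foxf2 from 0.0364 to between 0.00263 and 0.0578. Foxc2 was 9.89 times (5.51 to 19.0) and Foxc1 8.68 times (6.35 to 12.1) higher in matrix fibroblast-like cells. Of the 14 pericyte Foxc2 UMIs, 10 were in cluster 13, and without that cluster the Foxc2 ratio was 33.0 and the Foxc1 ratio 12.5. Of 7 members tested, 2 were called higher in matrix fibroblasts (8.18% of all genes tested) and 2 lower (8.93%). Foxs1 was 2.02 times higher in pericyte-like cells (1.81 to 2.25) and Foxo1 2.56 times higher in matrix fibroblast-like cells (2.10 to 3.13). Foxl1, which follows Foxc2 by 9.04 kb on chromosome 8, had 96 UMIs in matrix fibroblast-like cells and 4 in pericyte-like cells, a ratio of 48.9 (18.5 to 183), and had 0 UMIs in brain. Neighbours on that chromosome differed in pattern, with Fendrr 12.2 times higher in pericyte-like cells, against a matrix fibroblast level (5.96 CPM) below that of immune-like cells (19.6 CPM). Of 7 hedgehog genes tested, 4 were called higher in matrix fibroblasts and 0 lower. Hhip was 257 times (on 3 pericyte UMIs) and Gli1 46.1 times higher there, while Foxf1 and Foxf2 were lower.

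Between myofibroblasts and pericytes of the lung, Foxq1 and Foxs1 were called. Foxq1 was 55.5 times higher in myofibroblast-like cells (36.1 to 90.3) and Foxs1 36.4 times higher in pericyte-like cells (25.4 to 54.0). Neither fold is firm. The pericyte Foxq1 level (1.92 CPM) was not above the 4.90 CPM of lung immune-like cells, in which 1 UMI was 2.45 CPM. The myofibroblast Foxs1 level (4.42 CPM) lay inside the immune-like interval (0.0620 to 13.7). As myofibroblast over pericyte-like, the alternatives moved Foxs1 from 0.0275 to between 0.00290 and 0.0450. Foxf1 was 1.92 times (1.81 to 2.03) and Foxf2 1.26 times (1.18 to 1.35) higher in pericyte-like cells, and Foxo1 1.97 times higher in myofibroblast-like cells (1.61 to 2.40). Of 6 members tested, 1 was called higher in myofibroblasts (5.98% of all genes tested) and 1 lower (7.07%). The Foxq1 ratio was 14.5 at a clustering resolution of 0.4 and 379 with 10% of the library mean profile removed. Foxp2 was 61.2 times higher in myofibroblast-like cells (31.9 to 135), at 50.4 CPM, and was at 48.2 CPM in matrix fibroblast-like cells. Hhip and Gli1 were called higher in myofibroblasts among 6 hedgehog genes tested, and 0 were lower. Hhip was a naming marker of the myofibroblast class, so its ratio is no result.

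**Figure D5:**
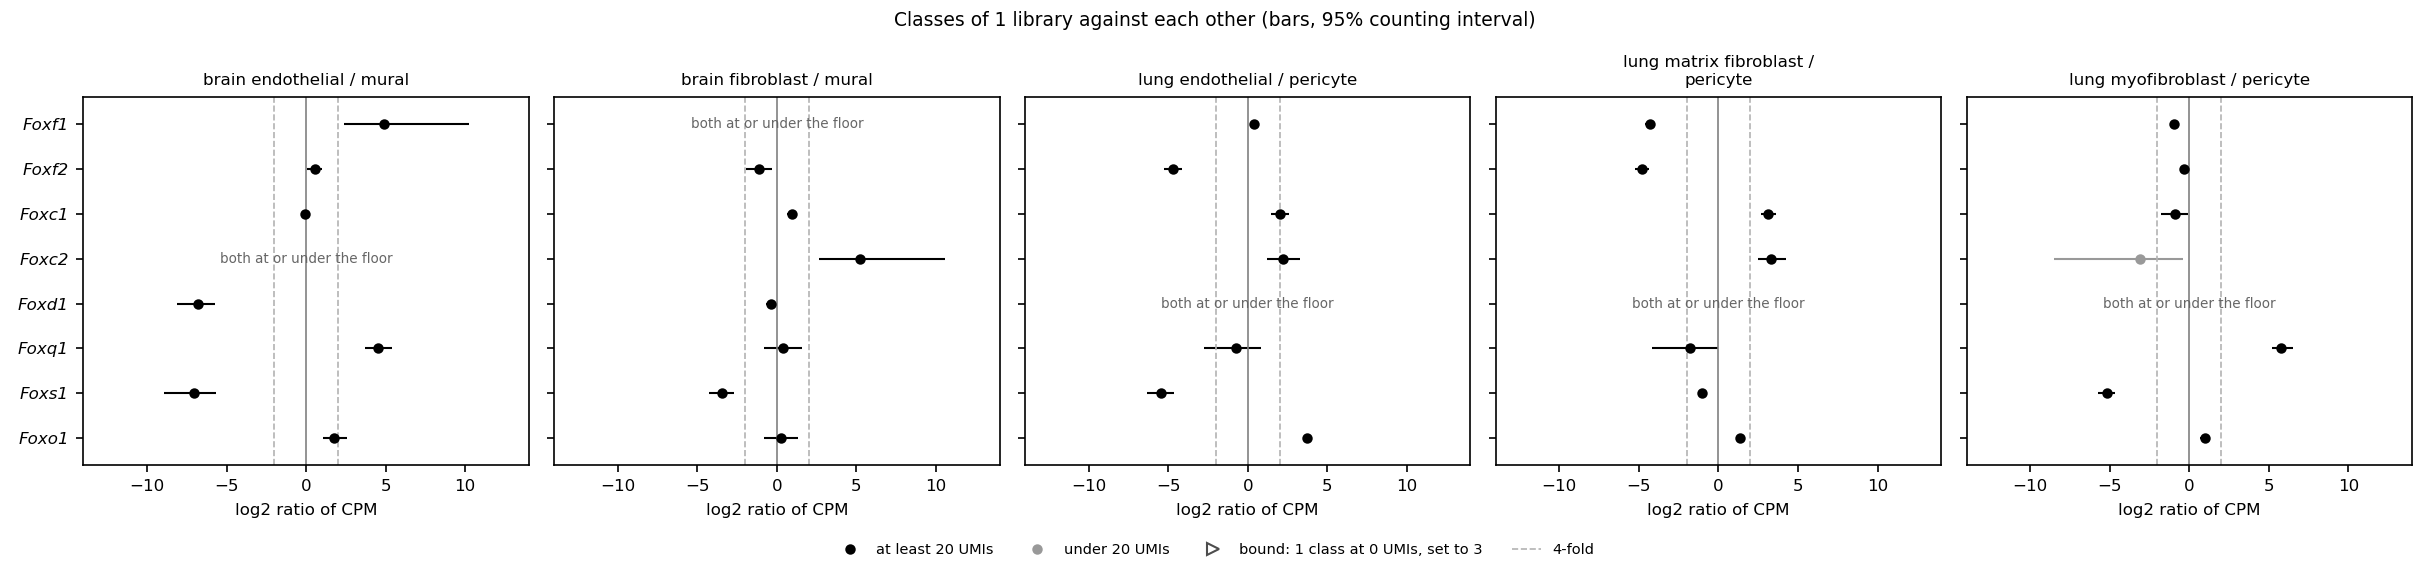
Ratio of CPM between classes of 1 library on a log2 axis for each forkhead gene; bars are exact 95% intervals from counting, grey points have under 20 UMIs and dashed lines mark 4-fold. Foxs1 lies on the mural or pericyte side in all 5 panels, and Foxf1 on the pericyte side against matrix fibroblasts.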

How the data were processed

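Single-cell RNA was measured with the 10x Chromium 3′ assay in reporter-positive cells from brain and lung, 1 library each. The deposited values are raw UMI counts per gene and cell that the authors made with bcl2fastq 2.19.1.403, UMI-tools 1.0.0, STAR 2.7.1a and featureCounts 1.6.4 on mm10, per the labels. The annotation, the strand setting and the rule that chose barcodes were not given in the sources used here. Following the published filter, barcodes passed if they had more than 200 but fewer than 4000 genes, and less than 40% of counts from mitochondria. Each library was clustered on its own in Seurat 5.3.0 (R 4.3.3) with 20 principal components at resolution 0.8, without forkhead and cell cycle genes. Clusters were named from marker lists, and names end in -like. Doublets were called with Scrublet (scanpy 1.11.5) but kept. Counts were summed per class. CPM has exact Poisson intervals, ratios exact conditional binomial intervals and shares exact Clopper-Pearson intervals (scipy 1.17.1). All intervals cover counting error only, not differences between animals. With 1 library per tissue no test was possible. Genes with at least 20 UMIs over both classes were called at 4-fold, with 0 UMIs set to a floor of 3 counts per class. The ratios and intervals were tested on simulated data.

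The members, gene lists, markers and thresholds were chosen with earlier results of these data known. All 8 members were named, and from each list up to 4 genes past 4-fold whose interval left out 1. Symbols that start with Fox but are not forkhead genes (Foxred1, Foxred2, Foxl2os) were left out. Likeness was compared over genes with at least 50 CPM in a class. Alternatives changed the cell filters, clustering resolution, doublets, free RNA, scaling (edgeR 4.0.16 TMM, median ratio), UMI minimum, fold and thinning. Leaving out lung cluster 13 or 17 was added after the data were seen. Promoter sequences were from RefSeq and matched 4 of 8 members. Some genes of the lists and 1 sequence are not reported here.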

Additional observations from a re-analysis of the deposited data

Results flagged for a closer look

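Foxf2 lay on opposite sides of the endothelial and mural comparison in the tissues. In brain its CPM in endothelial-like cells was 1.45 times that in mural-like cells (1.06 to 2.03), and in lung the ratio of endothelial-like over pericyte-like cells was 0.0393 (0.0266 to 0.0559). The difference between these ratios was not tested, as each tissue was 1 library. Of the 31 Foxf2 UMIs in lung endothelial-like cells, 18 were in 23 cells led by pericyte genes.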

How the results depend on the processing

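Of the counts of members past 4-fold, all but 3 stayed within 1.5 times of the reported count. At 2-fold, 7 members passed between lung pericyte-like and brain mural-like cells and 7 between lung matrix fibroblast-like and pericyte-like cells, and with at least 50 UMIs 1 passed between brain fibroblast-like and mural-like cells. Of the ratios, 505 moved by less than their interval, 33 moved and 2 reversed. Of the shares of thinned cells with a UMI, 107 moved beyond their interval, by leaving out the thinning or at the lowest or highest of 100 draws, and 85 did not. Foxq1 in lung endothelium over pericytes was 0.594 (0.148 to 1.76). Without an upper limit on genes per cell it was 1.14, and Foxf1 in fibroblasts, lung over brain, was 13.1. With 10% of the library mean profile removed, these were 3.11 and 0.0732, and Foxq1 in matrix fibroblasts over pericytes was 2.04. That removal also took Foxf2 in endothelium, lung over brain, to 0.00568 from 0.0581, and Foxf2 in lung endothelium over pericytes to 0.00403 from 0.0393. Without cells called doublets the latter was 0.0160, and without an upper limit on genes 0.0914. Foxs1 in the same comparison ranged from 0.00560 to 0.0520. The causes were not tested. Other scalings moved the median of all genes by up to 0.316 (log2), in matrix fibroblasts over pericytes. Counts of 1 to 3 UMIs limit several ratios. With no minimum of UMIs, the share of called genes that were higher in lung moved from 60.7% to 20.2% in endothelium, from 44.7% to 6.95% in mural cells and from 49.4% to 7.44% in fibroblasts, and with at least 50 UMIs it was 65.0%, 59.2% and 66.7%. Leaving out lung clusters 13 or 17, chosen after seeing the data, changed no count of members past 4-fold, and took 5 ratios beyond their interval and 35 not. No paired analysis was possible because each group was 1 library.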

Other observations

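Unnamed lung clusters also held members. Cluster 8 (203 cells), led by Fabp7, Parm1 and Adora1, had Foxs1 at 219 CPM, Foxf1 at 204 CPM and Foxf2 at 92.1 CPM, with 5735 CPM of Acta2. Cluster 15 (99 cells), led by Ptn, C3 and Mmp9, had Foxs1 at 94.5, Foxc2 at 25.5 and Foxc1 at 21.8 CPM, with Foxf1 at 14.5 CPM. Cluster 14 (110 cells), led by genes of dividing cells, had Foxf1 at 303, Foxf2 at 187 and Foxq1 at 84.5 CPM, and Foxs1 at 1 UMI.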
